A study of Mus musculus with 3 samples.

Results

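AGO2-bound RNA was examined over 7 mouse genes that slow or drive the cell cycle, namely Ccng2, Cdkn1b, Lats1, Btg1, E2f3, Cdk1 and Wee1. Every peak with its midpoint in the RefSeq span of 1 of these genes was taken, on either strand, from each of 4 deposited peak lists. This gave 36 of the 6911 peaks, in 7 of the 21900 annotated protein-coding genes. The genes were chosen because earlier work on these same lists had found each of them in at least 2 lists, so that each holds peaks is a condition of the choice and not a result. The study comprised 3 AGO2 HITS-CLIP libraries from P19, a single mouse embryonal carcinoma line, pulled down with the 2D4 antibody. There was 1 group, with no second genotype, treatment or time in the labels. The lists were made by the callers CIMS, Piranha, Pyicoclip and PIPE-CLIP for the series as a whole, so no value per library, no spread between libraries and no depth can be given. Nothing in the labels says whether the libraries came from separate cultures. No comparison here has a p-value, since the peak lists share their reads and the genes were picked for having peaks. Positions are in mm10, counted from 1.

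As background, AGO2 carries a microRNA as its guide and settles where the guide pairs with a messenger RNA, most often near the end of the transcript, and such RNAs are less stable and less translated. In HITS-CLIP, ultraviolet light links the protein to RNA in the cell, and the RNA fragments that come down with the protein are sequenced. A cell divides when cyclin-dependent kinases such as CDK1 are active. CDK inhibitors, the kinase WEE1, the Hippo pathway and the BTG proteins restrain division, and E2F factors switch on the genes of DNA replication. MicroRNAs of embryonic stem cells, among them the miR-302 and miR-290 families, are known for shortening the G1 phase by repressing such brakes.

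Of the usual markers of pluripotent cells, 2 of 12 held a peak, Pou5f1 with 1 and Lin28a with 12. Peaks were also found in 1 of 5 neuronal markers (Map2), 0 of 5 muscle markers and 0 of 4 fibroblast markers. Of all protein-coding genes 9.77% held a peak, so counts this small do not tell the marker sets apart. A peak marks RNA sequenced after the AGO2 pull-down and is no measure of expression. The marker counts thus say little about the identity of the cells.

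Ccng2 held 16 of the 36 peaks, more than any other of the 7 genes. Of the other brakes, Cdkn1b carried 5, Lats1 5, Btg1 3 and Wee1 2. The drivers E2f3 and Cdk1 carried 3 and 2. More brakes than drivers were chosen, so the totals of brakes and drivers are not compared. Peaks that overlapped were merged over all lists into loci, with strand ignored, and the 36 peaks formed 20 loci. Of these, 13 held peaks of at least 2 lists, against 37% of the 4617 loci of the series. Since the genes were chosen for peaks in several lists, the 2 shares are given side by side only. The midpoint of each of the 36 peaks lay in no other annotated gene, although the span of Pcmt1 overlaps that of Lats1.

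**Figure D1:**
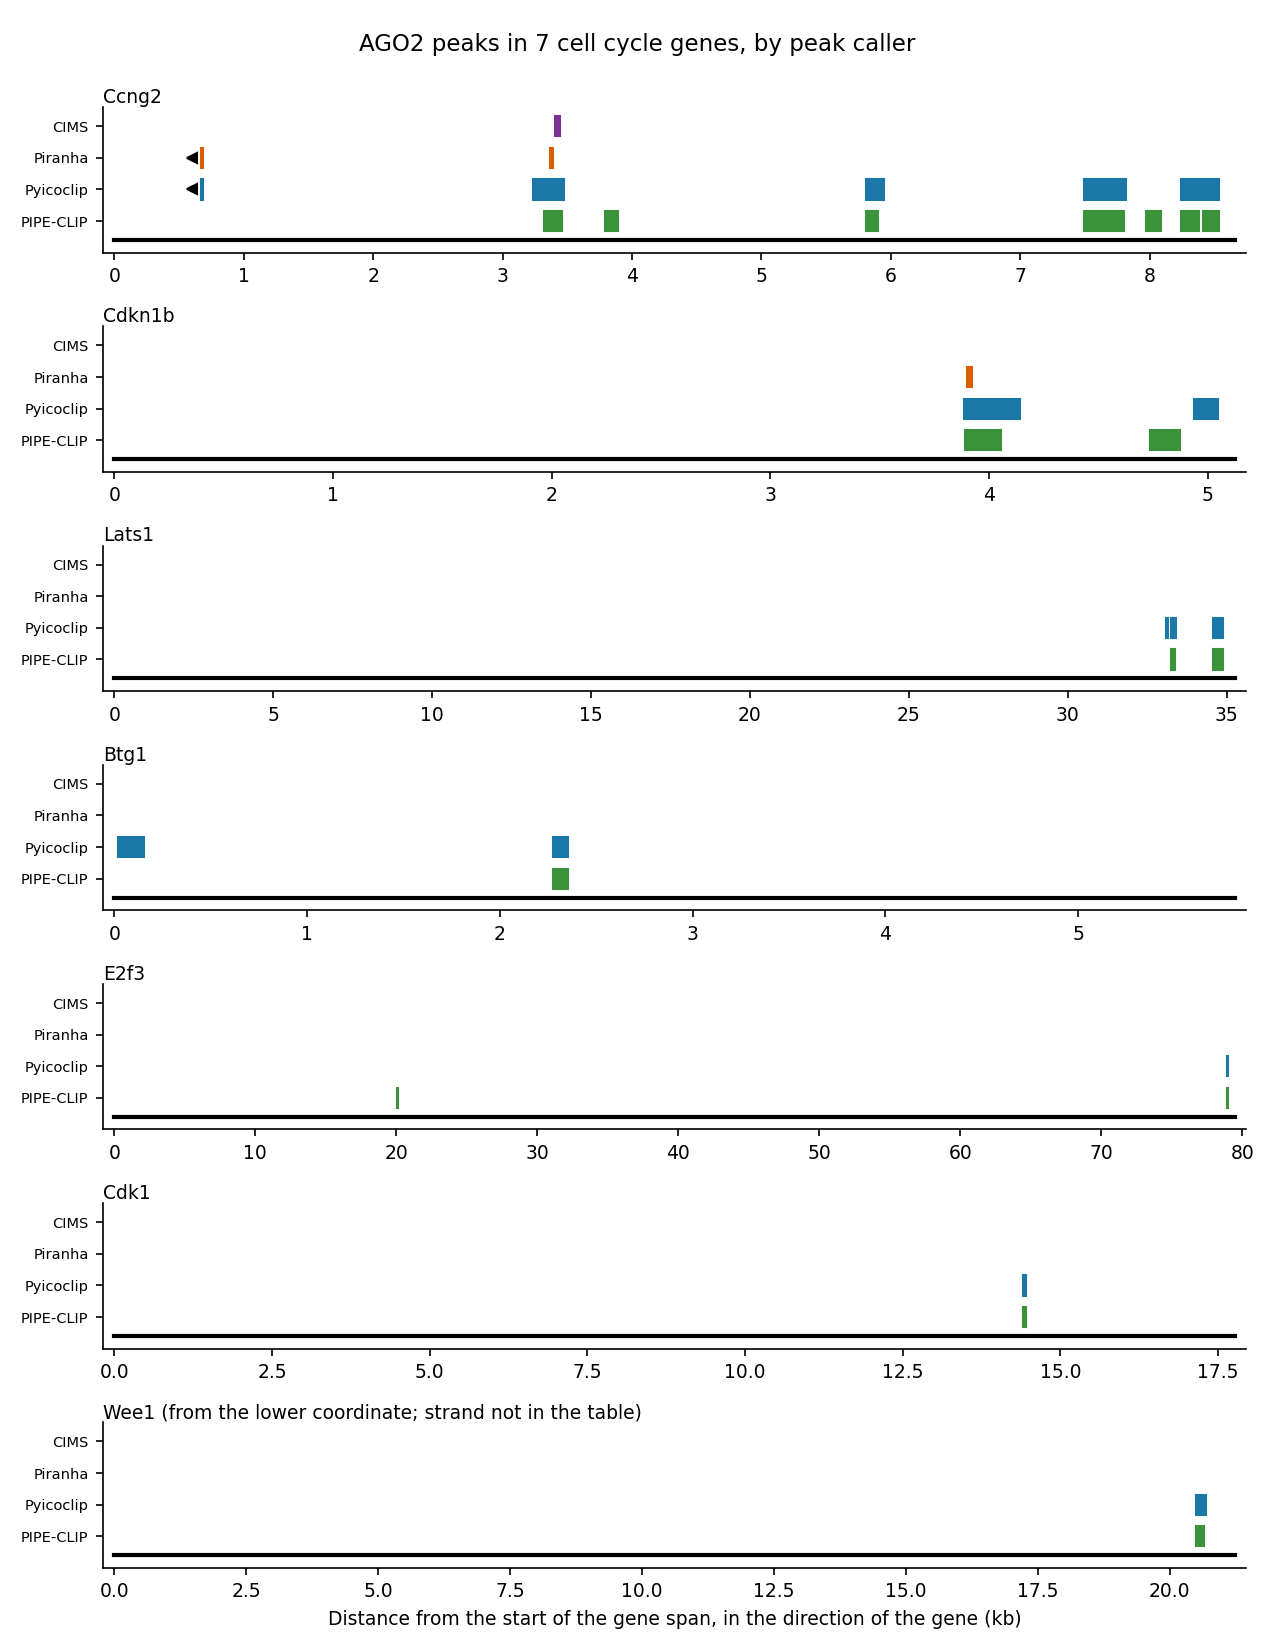
Peaks along the 7 gene spans, 1 panel per gene and 1 row per peak list; the x axis is the distance in kb from the start of the span in the direction of the gene (for Wee1, from its lower coordinate) and each box is a peak, with an outline that widens the narrowest ones. Black triangles mark peaks on the strand opposite to the gene, found at 1 place in Ccng2; the peaks of Lats1 lie close to the end of the span, those of Wee1 close to its higher coordinate, and those of Btg1 at its start and 39.8% of the way along.

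Across the lists, PIPE-CLIP and Pyicoclip each had 16 peaks, and each had at least 1 in all 7 genes. The share of all protein-coding genes with a peak was 7.12% in PIPE-CLIP and 4.54% in Pyicoclip. Piranha had 3 peaks, in Ccng2 and Cdkn1b, against 2.89% of protein-coding genes. CIMS had 1 peak, in Ccng2, against 0.279%. All 7 genes were in at least 2 lists by choice, where 3.99% of protein-coding genes were. Ccng2 and Cdkn1b were in at least 3 lists, as were 0.973% of protein-coding genes, and Ccng2 was in all 4, as were 0.105%.

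Ccng2 encodes cyclin G2, an unconventional cyclin that is high in resting cells and slows proliferation. Its span covers chromosome 5, 93267573 to 93276231, on the plus strand. With 16 peaks it stood behind 8 other protein-coding genes, with 8 loci behind 23, and with 6 loci of at least 2 lists behind 2. Its 8 loci covered 1218 nt, 14.1% of the span.

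The highest PIPE-CLIP score of Ccng2 lay about 1 kb before the end of the span. There, Pyicoclip gave a peak of 319 nt at 93275067 to 93275385 with a score of 24, and PIPE-CLIP a cluster of 308 nt at 93275068 to 93275375 with a score of 53. The score is the authors' own value per peak, without a stated unit, and can be ranked only within its list. The rank is given here as a percentile of the peaks of the list, with ties sharing their mean rank. The PIPE-CLIP cluster stood at the percentile 98.1 and the Pyicoclip peak at 91.3. Both callers thus placed this site among the high scores of their lists, although Pyicoclip scored the last locus of the gene higher.

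Nearer still to the end of Ccng2 lay 3 more loci. The last was drawn identically by both callers, at 93275983 to 93276110, with scores of 30 in PIPE-CLIP and 25 in Pyicoclip. The locus before it began at 93275816 in both, ended at 93275949 in PIPE-CLIP and 93275965 in Pyicoclip, and scored 30 and 20 in the same order. Only 17 nt separated these loci, and they became 1 when peaks up to 50 nt apart were merged. A PIPE-CLIP cluster at 93275548 to 93275659, with a score of 16, had no partner in another list.

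The site of Ccng2 that all 4 callers reported was not at the end but 38.7% of the way along the span. Pyicoclip covered 93270805 to 93271046 with a score of 21, at the percentile 89.0. PIPE-CLIP covered 93270890 to 93271029 with 16, at the percentile 64.5. Inside these, Piranha marked 93270941 to 93270960 with 15, at the percentile 77.7, and CIMS marked 93270978 to 93271018 with 12, at the percentile 16.6. The Piranha and CIMS peaks were 17 nt apart. The name of the CIMS peak gave k = 12 and m = 3, whose meaning is not given in the sources used here. Every Piranha peak began on a grid of 20 nt, so its edges are those of the grid and not of the bound RNA.

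Between this site and the end, Ccng2 had a PIPE-CLIP cluster scoring 11 at 93271363 to 93271465 and a locus of PIPE-CLIP and Pyicoclip at 93273378 to 93273521 with scores of 17 and 15. The remaining locus was 677 nt from the start of the gene and on the opposite strand. Piranha and Pyicoclip gave it the same 20 bases, 93268241 to 93268260 on the minus strand, both with the lowest deposited score of 10. Among the 6 genes with a strand in the table used, which leaves out Wee1, no other place had a stranded peak against its gene. Of the 16 Ccng2 peaks, 13 were on the gene strand and 1 Pyicoclip peak was unstranded.

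**Figure D2:**
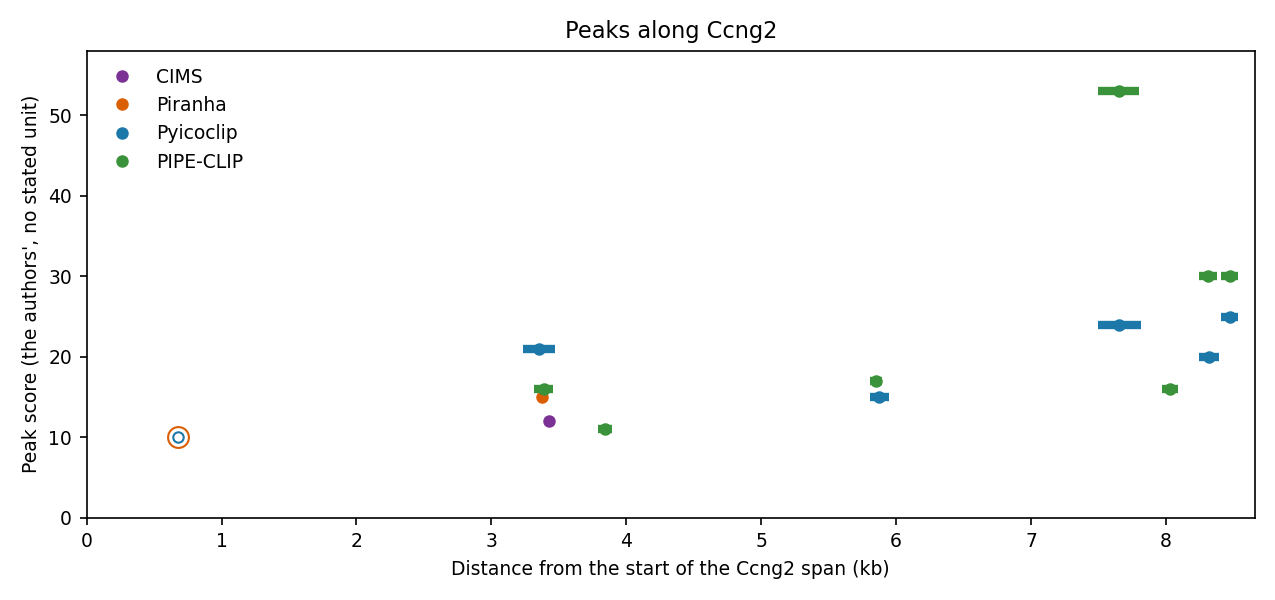
Scores of the 16 peaks of Ccng2 (y axis, the authors' score with no stated unit, not comparable between lists) against distance from the start of the span in kb (x axis); each bar spans a peak, the dot marks its middle and open circles mark the opposite strand. The PIPE-CLIP score of 53 stands about 1 kb before the end, and the site of all 4 lists has scores of 12 to 21.

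Among other protein-coding genes, the peak counts over the 4 lists were most like those of Ccng2 in Zbtb7a, with 1 CIMS, 2 Piranha, 6 Pyicoclip and 8 PIPE-CLIP peaks and a summed difference of 1 peak. Scd2 followed with 0, 1, 7 and 7 peaks in the same list order and a difference of 3, and Lin28a with 1, 1, 4 and 6 peaks and a difference of 4. Ccng2 itself had 1, 2, 6 and 7. This likeness rests on 4 counts per gene.

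Cdkn1b encodes p27, which binds and blocks cyclin E and cyclin A complexes with CDK2 and is known as a target of miR-221 and miR-222. Its span is chromosome 6, 134920401 to 134925525, plus strand. All 5 peaks lay on the gene strand with their midpoints within 1215 nt of the end of the span. At the main locus, 134924288 to 134924541, PIPE-CLIP scored 27 at the percentile 90.7 and Pyicoclip 20 at the percentile 87.2, while Piranha scored 10 at the percentile 12.8. The locus was thus high in 2 lists and at the floor of the third.

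Closer to the end of Cdkn1b the callers differed. PIPE-CLIP had a cluster at 134925136 to 134925273 with a score of 13, and Pyicoclip had a peak at 134925340 to 134925445 with a score of 12. The 2 intervals were 66 nt apart and were not joined even when peaks up to 50 nt apart were merged. These scores stood at the percentiles 43.7 and 47.7, that of PIPE-CLIP below the list median of 14 and that of Pyicoclip equal to the list median of 12.

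Lats1 encodes a Hippo pathway kinase that phosphorylates YAP and TAZ and keeps them out of the nucleus. The span is chromosome 10, 7681200 to 7716461, plus strand. All 5 peaks were on the gene strand and in the last 10% of a span of 35262 nt, the nearest to the end at 533 nt. There, at 7715782 to 7716074, PIPE-CLIP scored 43 at the percentile 96.8 and Pyicoclip 18 at the percentile 83.1. This was the highest PIPE-CLIP score of the 7 genes after that of Ccng2.

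The other 2 loci of Lats1 had lower scores. At 7714448 to 7714619 PIPE-CLIP and Pyicoclip gave 13 and 12, and at 7714276 to 7714358 Pyicoclip alone gave 10. These intervals were 89 nt apart.

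Btg1 belongs to the BTG and TOB family of antiproliferative proteins, which recruit the CCR4-NOT deadenylase to messenger RNAs. Its span is chromosome 10, 96617001 to 96622813, plus strand. Its highest-scoring peak was unlike those of Ccng2, Cdkn1b and Lats1 in place, since it lay at the start of the gene. Pyicoclip alone found it, at 96617022 to 96617154, with a score of 16 at the percentile 76.9, and its first base was 21 nt after the first base of the span. It was the only 1 of the 36 peaks to reach a RefSeq promoter window (250 bases before to 50 after the gene start). Bases 96617022 to 96617050 of the peak are held there, on the plus strand of GRCm38.p6. They are shown because they are the only bases under the 36 peaks whose letters the sequences used here hold. All are in capitals because all lie under the peak.
Btg1: GGAAATGCAACTCTCGGGATCCTCGGAGG
None of 13 microRNAs looked up had a perfect match of its seed, bases 2 to 8, in these 29 bases. That concerns these letters alone and not the rest of the 133-nt peak. The second locus of Btg1, 39.8% along the span, had a Pyicoclip peak at 96619274 to 96619351 and a PIPE-CLIP cluster at 96619276 to 96619353, each with the lowest score of 10.

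Wee1 encodes the kinase that holds CDK1 inactive by phosphorylation. Its span is chromosome 7, 110122059 to 110143299. Both peaks formed 1 locus at 110142569 to 110142745, with a PIPE-CLIP score of 17 at the percentile 69.4 and a Pyicoclip score of 10 at the percentile 12.1. Both were on the plus strand, and the nearer midpoint lay 642 nt from the higher end of the span. The strand of Wee1 was not in the table used, so these peaks enter no count of strand or position below. The 2 lists ranked this site 57.3 points apart, the widest gap of the 12 loci with 1 peak of each.

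E2f3 encodes an activator of S-phase genes and spans chromosome 13, 29906575 to 29986064, minus strand. Its shared locus, 29907060 to 29907149, was drawn identically by PIPE-CLIP and Pyicoclip, 529 nt before the end of a gene of 79490 nt. The scores were 15 in PIPE-CLIP, at the percentile 58.7, and 11 in Pyicoclip, at the percentile 32.7, where the peak had no strand. A second PIPE-CLIP cluster, at 29965916 to 29966003 with a score of 17, lay 25.3% along the span and was in no other list. By score, the cluster without a partner was the higher of the 2.

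Cdk1 encodes the kinase that, with cyclin B, drives entry into mitosis, and spans chromosome 10, 69335146 to 69352912, minus strand. It had 1 narrow locus, 69338453 to 69338511, found by PIPE-CLIP with a score of 14 and Pyicoclip with a score of 10. The locus lay 3336 nt before the end of the span, 81.2% along, and covered 0.332% of it. As many as 82 other protein-coding genes had these same counts, 1 peak in each of these 2 lists and none in the others. The counts of Cdk1 and Wee1 alone therefore do not set them apart.

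**Figure D3:**
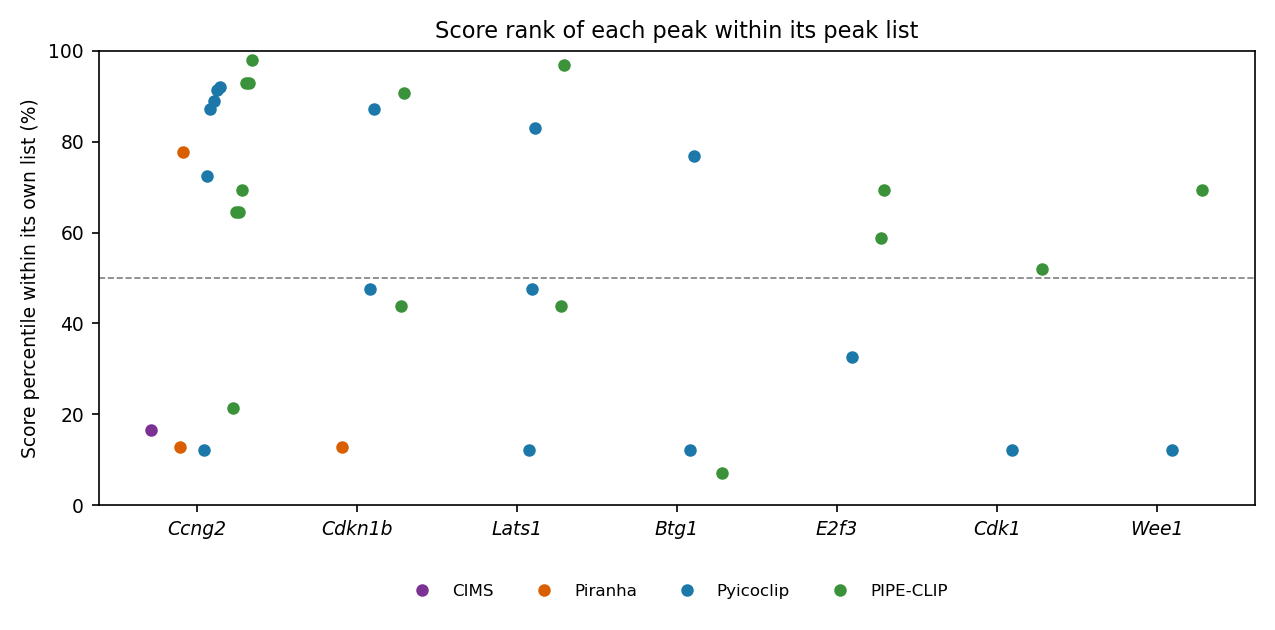
Score percentile of each of the 36 peaks within its own list (y axis, 0 to 100%), by gene and coloured by list; the dashed line is the middle of a list. Ccng2, Cdkn1b and Lats1 have peaks above 80% in both PIPE-CLIP and Pyicoclip. Pyicoclip peaks at 12.1%, the percentile of the lowest score of 10, are found in Cdk1, Wee1, Ccng2, Lats1 and Btg1.

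Taken by list, the 16 PIPE-CLIP clusters had a median score of 16.5 and a median percentile of 66.9, against a median score of 14 in the whole list. The 16 Pyicoclip peaks had a median score of 13.5 and a median percentile of 60.01, against a list median of 12. At or above the list median stood 12 of 16 PIPE-CLIP clusters, where 51.9% of the list did, and 10 of 16 Pyicoclip peaks, where 58.8% of the list did. Ccng2 supplied 6 of the 12 and 5 of the 10. Because the genes were chosen for peaks in several lists, the scores of their peaks and of the list are given side by side only. The lowest score of 10 was that of 5 of the 16 Pyicoclip peaks of the 7 genes, against 24.2% of the list, of 1 of the 16 PIPE-CLIP clusters, against 14.1%, and of 2 of the 3 Piranha peaks, against 25.6%.

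At the 12 loci with 1 peak of each of these lists, the intervals were close to identical at their starts. The PIPE-CLIP start was within 2 nt of the Pyicoclip start at 11 of the 12, the exception being the site of all 4 lists in Ccng2, where it was 85 nt further on. The ends agreed within 2 nt at 4 of the 12, and PIPE-CLIP ended up to 88 nt earlier, at the main Cdkn1b locus. At 10 of the 12 the PIPE-CLIP cluster lay wholly inside the Pyicoclip peak. The percentile was higher in PIPE-CLIP at 8 of the 12. The sharing of loci rests on this pair of callers: without the Pyicoclip list 2 loci of at least 2 lists were left, and without the PIPE-CLIP list 3.

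Pyicoclip peaks of the 7 genes had a median width of 138.5 nt, against 29 nt in the list, and PIPE-CLIP clusters 125.5 nt against 85 nt. The list medians take in all peaks, also those outside protein-coding genes. Of the 825 stranded Pyicoclip peaks in a single protein-coding gene span with a strand, 376 were over 60 nt. Since the genes were chosen for peaks in several lists, the widths are given side by side only. The 20-nt Ccng2 peak on the opposite strand was the only Pyicoclip peak of the 7 genes under 59 nt. Across the series, Pyicoclip peaks over 60 nt that fell in the span of a single gene, with that gene protein-coding, were on the gene strand in 92.6% of 376 cases (95% Wilson interval 89.4 to 94.8, counting error only). Those of at most 30 nt were on it in 51.3% of 396 (46.4 to 56.1). The wide peaks thus followed the gene strand and the narrow ones were split about evenly over both strands.

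For the 6 genes with a strand in the table, 30 of 32 stranded peaks were on the gene strand. In PIPE-CLIP this held for 15 of 15 clusters, against 98.2% of the 2100 clusters within a single gene span that was protein-coding and had a strand. In Pyicoclip it held for 12 of 13, against 70.8% of 825, in Piranha for 2 of 3, against 58.5% of 496, and in CIMS for 1 of 1, against 70% of 40. With so few peaks the intervals of the 7 genes are wide, for Pyicoclip 66.7 to 98.6%, and the peaks of a gene are not independent of each other. The 70.8% pools Pyicoclip peaks of all widths, and of those over 60 nt 92.6% were on the gene strand. Most Pyicoclip peaks of the 7 genes were that wide, and the genes were chosen for peaks in several lists. The shares are therefore given side by side only. The background shows that a peak of Piranha within a gene span is often not on the strand of that gene.

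**Figure D4:**
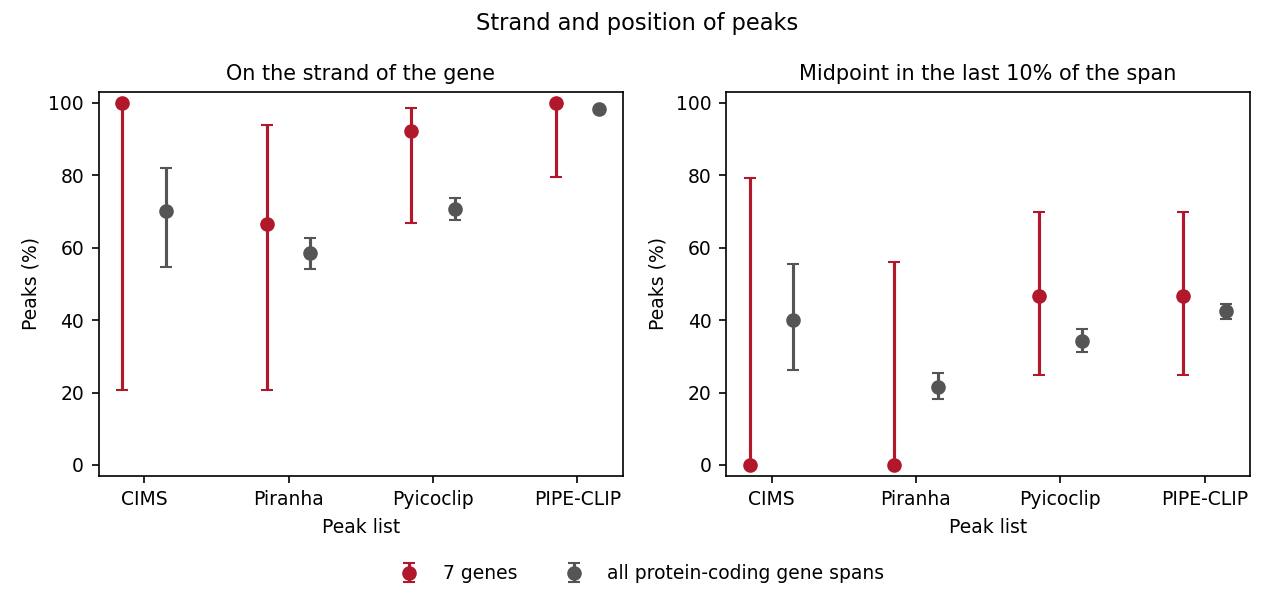
Share of peaks on the gene strand (left) and with the midpoint in the last 10% of the span (right), in percent, for the 7 genes (red) and for all peaks in exactly 1 protein-coding gene span (grey), by peak list; bars are 95% Wilson intervals and cover counting error only. In the right panel the 7 genes stand at 46.7% in Pyicoclip and PIPE-CLIP, with intervals that take in the grey values.

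Read in the direction of the gene, 14 of 34 peaks had their midpoint in the last 10% of the span and 3 in the first 10%. A site given by several lists was counted once for each of them. Of the 3, 2 were the same 20 bases of Ccng2 on the opposite strand, from Piranha and Pyicoclip. Over all protein-coding gene spans the first 10% held 12.3% of Piranha, 10.1% of Pyicoclip, 8.05% of PIPE-CLIP and 10% of CIMS peaks. By list, the peaks in the last 10% were 7 of 15 in PIPE-CLIP, against 42.4% of 2100 clusters, and 7 of 15 in Pyicoclip, against 34.3% of 888 peaks. Neither of the other lists had a peak of the 7 genes there, where Piranha had 21.6% of 496 and CIMS 40% of 40. The interval of 24.8 to 69.9% for 7 of 15 includes both backgrounds. By gene, Lats1 gave 5 of the 14, Ccng2 5, Cdkn1b 2, E2f3 2, and Btg1 and Cdk1 none. These counts depend on span length, which was 35262 nt in Lats1 and 5125 nt in Cdkn1b. A Lats1 midpoint 2144 nt from the end was counted. All 5 Cdkn1b midpoints lay within 1215 nt of the end, yet only 2 were counted. Counting only the highest-scoring peak of each gene and list gave 4 of 15. The exons, coding regions and untranslated regions of these genes were not used, so a peak near the end of a span is not assigned to any of them.

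To set the 7 genes in their pathway, 87 cell cycle genes were listed by role, all of which were in the gene table. Of these, 25 had a peak in at least 1 list and 12 in at least 2. Among the 80 that are not among the 7, 18 had a peak (22.5%, against 9.77% of all protein-coding genes) and 5 had peaks in at least 2 lists (6.25%, against 3.99%). The list was drawn up with earlier results on these peaks known, and span lengths were not matched.

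**Figure D5:**
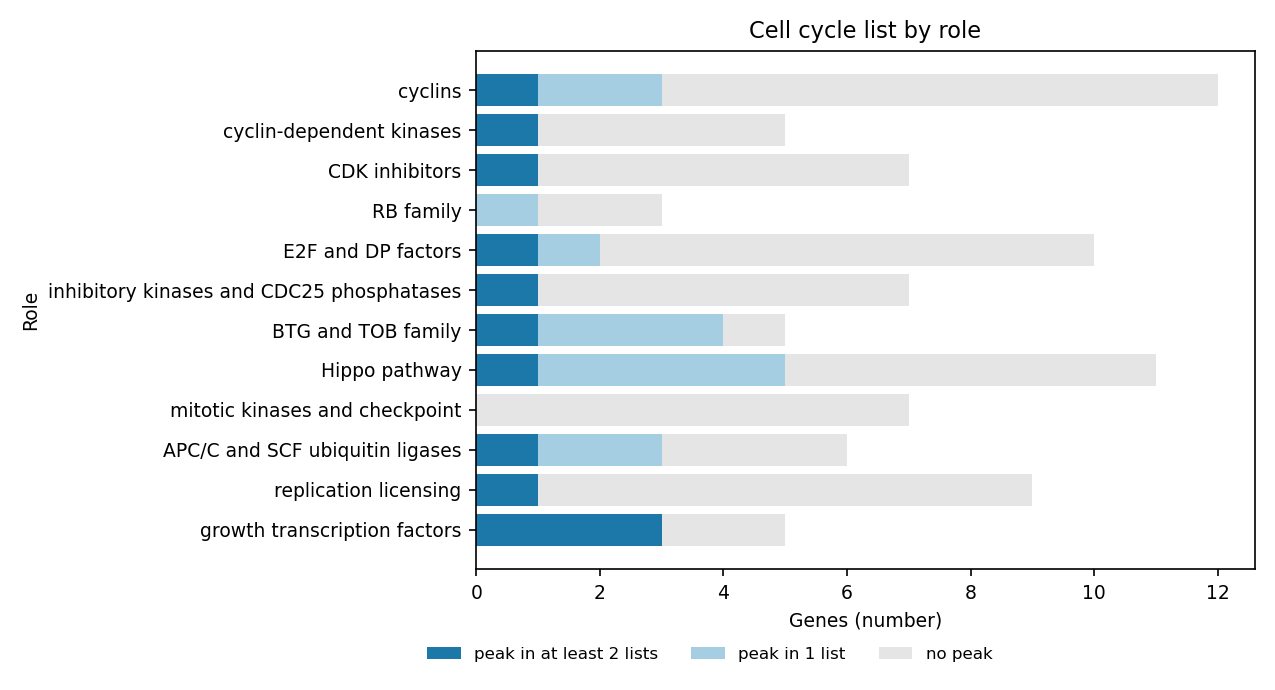
Genes of the 87-gene cell cycle list by role (x axis, number of genes), split into those with a peak in at least 2 lists, in 1 list and in none. Each of the CDK, CDK inhibitor and inhibitory kinase rows holds 1 gene with a peak, and the row of mitotic kinases and checkpoint genes holds none of 7.

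By role, 1 of 7 CDK inhibitors held a peak (Cdkn1b), 1 of 5 CDKs (Cdk1), and 1 of 7 inhibitory kinases and CDC25 phosphatases (Wee1). Cyclins had 3 of 12, with 3 PIPE-CLIP clusters in Ccnd2 and 1 in Ccna2 beside Ccng2. The BTG and TOB family had 4 of 5, with 3 PIPE-CLIP clusters in Tob2 and 1 each in Btg2 and Btg3 beside Btg1. The Hippo pathway had 5 of 11, with Nf2, Yap1 and Wwtr1 in PIPE-CLIP and Tead1 in Pyicoclip beside Lats1. Btg2, Btg3, Tob2, Nf2, Yap1 and Wwtr1 are all minus-strand genes. PIPE-CLIP had a peak in 12.2% of minus-strand protein-coding genes and in 1.98% of plus-strand ones. The E2F and DP factors had 2 of 10, with 1 PIPE-CLIP cluster in E2f1 beside E2f3. The RB family had 1 of 3, a PIPE-CLIP cluster in Rbl1, and the APC/C and SCF ubiquitin ligases had 3 of 6, with 1 PIPE-CLIP cluster each in Fzr1 and Cdc27 beside Fbxw7. Replication licensing had 1 of 9 (Mcm7), the growth transcription factors 3 of 5 (Mycn, Foxo1 and Foxo3), and the mitotic kinases and checkpoint genes 0 of 7. Cdkn1a, Rbl2 and Lats2, brakes known as targets of the embryonic stem cell microRNAs, had no peak in any list. The same held for most genes, since only 9.77% of protein-coding genes had one. Peaks below a score of 10 were not analysed here, so no peak in the lists is not an absence of binding.

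Against the condition of at least 2 lists, Cdk1 and Wee1 stood just inside, with 2 peaks each in 2 lists, and Ccnd2 and Tob2 just outside, with 3 peaks each in 1 list. The condition does not define the 7 genes, since Foxo3, Mcm7, Mycn, Foxo1 and Fbxw7 of the 87-gene list met it too. On the side of position, the midpoint nearest to the edge of a span was 87 nt inside Btg1, and the nearest outside any of the 7 spans was 50730 nt away, beyond Cdkn1b. No peak overlapped a span with its midpoint outside it.

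The PIPE-CLIP list leaned to genes of the minus strand, with 2835 of its 3257 clusters on that strand. It had a peak in 12.2% of 8762 minus-strand protein-coding genes and in 1.98% of 8730 plus-strand ones, where Pyicoclip had 4.51% and 4.56%. Among the other 80 cell cycle genes, PIPE-CLIP had a peak in 13 of 37 minus-strand genes and 0 of 26 plus-strand ones. Of the 7 genes, the plus-strand Ccng2, Cdkn1b, Lats1 and Btg1 all had PIPE-CLIP clusters, as did the minus-strand E2f3 and Cdk1. The 12 other genes with peaks in PIPE-CLIP alone had 17 clusters, all on the minus strand. How far this lean set which genes of the list had peaks was not tested.

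Of the genes beyond the 7 with peaks in at least 2 lists, Mcm7, a subunit of the replicative helicase, hosts microRNA genes. All 5 of its peaks had their midpoint in Mir25 or Mir93, so they need not come from the Mcm7 messenger RNA. Foxo3, a transcription factor that restrains division, had 8 peaks at 7 loci. Of these peaks 6 were PIPE-CLIP clusters, and only the Piranha and Pyicoclip peaks shared a locus. The clusters that began at 42260675 and 42264407 on chromosome 10 had their midpoint in Gm38485 as well. Mycn, a growth-promoting factor, had a locus of PIPE-CLIP with a score of 22 and Pyicoclip with a score of 10 at chromosome 12, 12936940 to 12937062. Foxo1, a relative of Foxo3, and Fbxw7, a substrate receptor of an SCF ubiquitin ligase, each had 1 locus of Piranha and Pyicoclip, with scores of 14 and 14 in Foxo1 and 10 and 10 in Fbxw7. None of these had a CIMS peak.

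To see which guide sequences lay under peaks of the same lists, 10 microRNAs were looked up in RefSeq (GRCm38.p6). They were microRNAs of embryonic cells or with known cell cycle targets, and all 10 were found. A mature sequence lay wholly inside a peak for 5 of them. Their sequences follow, with those of miR-93 and miR-25 from the Mcm7 gene, added after its peaks were seen. They are printed in full because each is a guide whose own RNA was under a peak, with the seed in capitals.
mmu-miR-302b-3p: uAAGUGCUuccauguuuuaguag
mmu-miR-93-5p: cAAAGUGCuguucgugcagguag
mmu-miR-92a-3p: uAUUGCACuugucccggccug
mmu-miR-25-3p: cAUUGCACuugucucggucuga
mmu-miR-182-5p: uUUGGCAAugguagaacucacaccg
mmu-miR-181a-5p: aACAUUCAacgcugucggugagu
mmu-miR-16-5p: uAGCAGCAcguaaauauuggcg
The seed AUUGCAC is common to miR-92a and miR-25. Of the covering Pyicoclip peaks, those at Mir181a-1 and Mir182 scored 30 and 27, those at Mir92-1 and Mir92-2 20 and 16, that at Mir25 15, those at Mir302b and Mir93 13 each, that at Mir181a-2, the second copy of miR-181a, 12, and that at Mir16-1 11. The peak at Mir17 did not cover miR-17-5p. No peak had its midpoint in Mir294, in Mir24-1 or Mir24-2, in the listed copy of the let-7a gene, or in Mir221 and Mir222, whose microRNAs are known to repress Cdkn1b. Copies of 1 mature microRNA cannot be told apart by their own sequence. The bases under the peaks of the 7 genes were not used, apart from those of Btg1, so no guide is assigned to any of these sites.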

How the data were processed

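HITS-CLIP libraries from P19 cells (3, 1 group) entered 4 peak lists. The submitters' processing notes name Novoalign, cutadapt and the build mm10. Neither versions nor caller settings, nor how libraries were pooled, are given in the sources used here. The deposited score of each peak is the authors' own value, with no stated unit and a lowest value of 10.

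Peaks were assigned by midpoint to gene spans of RefSeq GRCm38.p6, and gene strands came from the RefSeq promoter table, which held 80.1% of the protein-coding genes with a peak and 6 of the 7 genes. Positions run from the start of the span in the direction of the gene. Loci were merged at an overlap of 1 nt. Assignment, strand and merging were tested on simulated data. No p-value was computed. Exon classes were planned and not run, and seed matches were sought only in the 29 bases of the Btg1 peak that the promoter table holds, since the genome sequence was not used here.

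The genes, lists and rules were chosen with earlier results of these data known. Genes named were the 7, other cell cycle genes in at least 2 lists, and the 3 most like Ccng2 by peak count; others named, such as the cell cycle genes in 1 list, Cdkn1a, Rbl2, Lats2 and the markers, were added after their values were seen. Alternatives covered the score minimum, the assignment, merging and the lists used. Python 3.11.15, numpy 2.4.6, pandas 2.3.3, scipy 1.17.1 and matplotlib 3.10.9 were used.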

Additional observations from a re-analysis of the deposited data

How the results depend on the processing

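With only the better-scoring part of each list (scores at or above the list median), the 36 peaks became 23, the 13 loci of at least 2 lists 7, and the 12 cell cycle genes in at least 2 lists 6. Without Pyicoclip there were 20 peaks, 2 loci of at least 2 lists, 7 peaks in the last 10% of the span, 18 peaks on the gene strand and 4 cell cycle genes in at least 2 lists. Without PIPE-CLIP these were 20, 3, 7, 15 and 6, and 13 cell cycle genes had a peak, against 25. The highest-scoring peak of each gene and list gave 4 of 15 in the last 10% of the span, against 14 of 34. A minimum score of 12, chosen after seeing the data, left 8 loci and 6 cell cycle genes in at least 2 lists. Single genes had few peaks: in the better-scoring part Cdkn1b and Lats1 kept 3 of 5 each, Btg1 1 of 3, and Cdk1 and Wee1 1 of 2 each, and at a score of at least 12 Btg1, Cdk1 and Wee1 had 1 each. The other repeats of the counts over all 7 genes or the cell cycle list stayed within 1.5 times, among them assignment by any overlap, leaving out CIMS or Piranha, and merging within a strand or over 50 nt. Reading Wee1 in the direction of its peaks, also chosen later, gave 16 peaks in the last 10% and 32 on the gene strand. No paired analysis was possible because the lists hold no value per library, and for the same reason no library could be left out. Depth is unknown, and the floor of 10 limits which sites can appear.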

Other observations

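Narrow Piranha peaks were mixed in strand across the series. Of 474 Piranha peaks of at most 30 nt within a single protein-coding gene span, 275 were on the strand of the gene (58.02%, 95% Wilson interval 53.5 to 62.4, counting error only). Ccng2 and Cdkn1b held 3 such Piranha peaks, with 2 on the gene strand and 1, near the start of Ccng2, against it.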
